A study of Mus musculus with 10 samples.

Results

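Chondrocytes of the Grem1 lineage that are rich in Cnmd, the transcript of the secreted cartilage protein chondromodulin, were described here by their transcripts, their variation from cell to cell and their variation between plates. Of 768 wells on the 8 Grem1-lineage plates, 684 held a cell with at least 350 genes with a UMI (unique molecular identifier, a tag that counts each captured RNA once), and 245 of these 684 cells were Cnmd-rich (35.8%, exact binomial 95% interval 32.2% to 39.5%). A cell was chosen by 2 conditions: Cnmd made up at least 1% of its UMIs, and its Cnmd UMIs outnumbered the sum of Clu, Cilp and 1500015O10Rik, transcripts that are abundant in articular cartilage. The mirror image of this rule gave 402 Clu/Cilp/1500015O10Rik-rich cells (58.8%), and 37 cells fell in neither group. The whole series held 844 such cells in 930 wells, 160 of them of the Lepr lineage.

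All Grem1-lineage cells came from C57BL/6 Grem1-TdT mice, in which tamoxifen-dependent Cre under Grem1 control switches on the red reporter TdTomato from the Rosa26 locus. Tamoxifen was given in chow for 2 weeks from 5 to 6 weeks of age, and live TdTomato+ cells of excised articular cartilage (AC) and growth plate (GP) were sorted singly into 96-well plates. The reporter also marks progeny of the labelled cells. The cells of several individual samples were grouped, so a plate is not an animal, and the labels do not give the tissue of each plate. The Lepr-TdT cells used as a background were TdTomato+ and CD45-Ter119-CD31-, and came from a line with constitutive Cre.

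In the growth plate, chondrocytes pass from a resting zone through columns of dividing cells to hypertrophic cells, which enlarge and mineralise their matrix. Cartilage matrix is built from type II, IX and XI collagen fibrils and from aggrecan, the large proteoglycan encoded by Acan. Col10a1 encodes the short-chain collagen of hypertrophic cartilage, Alpl the alkaline phosphatase that acts in mineralisation, and Fgfr3 a receptor that restrains growth plate chondrocyte division. Cnmd inhibits the ingrowth of vessels, Epyc encodes the small leucine-rich proteoglycan epiphycan, and C1qtnf3 encodes a secreted protein of the C1q and TNF family.

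Sequence just before the gene start is shown for Cnmd, which chose the cells, and for Epyc and C1qtnf3, the protein-coding genes furthest above the Clu/Cilp/1500015O10Rik-rich cells. Each line gives the 250 bases upstream of a RefSeq start (GRCm38.p6), read 5′ to 3′ on the gene's strand, with capitals marking motif letters.
Cnmd, chr14:79662184-79662433, minus strand: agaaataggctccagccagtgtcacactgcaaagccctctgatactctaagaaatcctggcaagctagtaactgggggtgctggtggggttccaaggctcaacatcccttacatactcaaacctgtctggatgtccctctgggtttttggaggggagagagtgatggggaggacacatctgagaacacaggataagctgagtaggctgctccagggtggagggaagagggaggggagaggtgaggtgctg
Epyc, chr10:97643818-97644067, plus strand: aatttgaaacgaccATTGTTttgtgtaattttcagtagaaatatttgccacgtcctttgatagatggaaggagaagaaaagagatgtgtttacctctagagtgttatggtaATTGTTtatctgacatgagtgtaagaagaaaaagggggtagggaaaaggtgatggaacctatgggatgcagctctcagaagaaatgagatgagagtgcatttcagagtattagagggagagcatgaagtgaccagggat
C1qtnf3, chr15:10952082-10952331, plus strand: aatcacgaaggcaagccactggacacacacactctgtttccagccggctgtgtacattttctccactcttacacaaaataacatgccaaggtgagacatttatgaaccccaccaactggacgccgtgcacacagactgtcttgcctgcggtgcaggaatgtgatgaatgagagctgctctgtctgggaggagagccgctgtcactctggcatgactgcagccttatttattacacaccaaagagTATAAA
The motifs searched on both strands were AACAAT and ACAAAG, 2 cores bound by SOX and related HMG box proteins, and TATAAA, the TATA box. RefSeq gives Epyc 2 starts, and the window shown is that of the first. It held AACAAT on the minus strand, printed as ATTGTT, 236 and 139 bases upstream of the start. The window of the second start (chr10:97646853-97647102) held AACAAT on the minus strand 228, 208 and 201 bases upstream and ACAAAG on the plus strand 147 bases upstream. The C1qtnf3 window held TATAAA 6 bases upstream. The Cnmd window held none of the 3 motifs. Among 32851 windows of this length, 9.42% held AACAAT, 16.5% ACAAAG and 12.4% TATAAA. A match is a description of the letters and no evidence of binding. In the GENCODE annotation of GRCm38, Cnmd lies at chr14:79637690-79662170 on the minus strand, Epyc at chr10:97644068-97682454 on the plus strand and C1qtnf3 at chr15:10952332-10980150 on the plus strand. Col10a1 lies at chr10:34389981-34397085 and Fgfr3 at chr5:33721674-33737068, and both have an annotated gene on the opposite strand, as does Epyc. Alpl, on which several results below turn, lies at chr4:137741733-137796384 on the minus strand, and Cdkn1c at chr7:143458339-143461050 on the minus strand, opposite Gm44732.

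By transcript levels in these same data, the plates fell into 2 sets. Plates 1, 2 and 4 had 7376 to 8531 CPM (UMI counts scaled to 1000000 in each sum) of Actb, the cytoskeletal actin transcript, in the Cnmd-rich cells, and plates 5 to 9 had 37204 to 55623 CPM. The summed immediate early genes followed the same split, at 17696 to 25092 CPM against 35792 to 44107 CPM. Across 358 genes, the profiles of Cnmd-rich cells correlated at 0.798 to 0.853 within plates 1, 2 and 4, at 0.875 to 0.941 within plates 5 to 9, and at 0.701 to 0.802 between the sets. Genes are not independent replicates, and the labels name no difference between these plates. The part of this split in the results was not tested except by repeating each comparison within both sets. The same 96 well barcodes occurred on all 8 plates, and cells were told apart by plate and barcode together.

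Each plate held 25 to 39 Cnmd-rich cells, or 27.7% to 47.0% of its kept cells (mean 35.9% ± 6.19 SD, n = 8 plates). The highest share was on plate 6 and the lowest on plate 4. The summed UMIs of Cnmd-rich cells ranged from 56535 to 95162 per plate. A Cnmd-rich cell had a median of 2304 UMIs and 943 genes, and a Clu/Cilp/1500015O10Rik-rich cell 1205.5 UMIs and 508 genes. All intervals given for shares of cells cover counting error only.

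Cnmd, which chose the cells, made up a median of 2.64% of their UMIs (1.01% to 5.58%), and the 3 opposing transcripts together 0.497%. In the Clu/Cilp/1500015O10Rik-rich cells these medians were 0.429% and 4.19%. The member with the lowest Cnmd share had 11 Cnmd UMIs among 1092, and the cell just outside had 9 among 966 (0.932%). The opposing transcripts kept out 30 cells with at least 1% Cnmd, and 137 members had at least 5 times as many Cnmd UMIs as UMIs of these 3 transcripts. Of the wells under the gene minimum, 74 of 84 also had a Cnmd UMI, with a median of 3 UMIs, and of the Clu/Cilp/1500015O10Rik-rich cells 389 of 402 had one. Among Lepr-lineage cells, which should lack Cnmd, it was found in 3 of 160 (1.88%) at a median of 505 UMIs per cell. Presence of a Cnmd UMI was thus no mark of the group, whose rule rests on the share.

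The other chondrocyte markers were found in most members. Col2a1, the chain of type II collagen, and Acan had a UMI in all 245 members, and Epyc in 195 (79.6%). Col2a1 was also found in 100% and Acan in 86.1% of Clu/Cilp/1500015O10Rik-rich cells, so a UMI of either was no mark of the group. Epyc was found in 6.47% of Clu/Cilp/1500015O10Rik-rich cells and in 0 of 160 Lepr-lineage cells. With every cell thinned to 1000 UMIs, which left 240 and 263 cells, Epyc was found in 61.3% of Cnmd-rich cells (54.8% to 67.4%) and in 3.04% of Clu/Cilp/1500015O10Rik-rich cells (1.32% to 5.91%). The Grem1-lineage table used here lists 29183 complete genes and ends within the row of a further gene. All shares of UMIs, CPM values, genes per cell and counts of list members refer to these 29183 genes, not to the whole transcriptome. Grem1, Prg4, Sox9, Matn3, Ihh and Mki67 are not among them and were not analysed here, so their levels in these cells are not known.

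The 15 listed genes with the most UMIs held 24.9% of the 608047 UMIs of Cnmd-rich cells, and 50 genes were found in at least 95% of them. They included the fibril collagens Col2a1, Col11a1, Col11a2 and Col9a3, the aggrecan transcript Acan, the leucine-rich matrix protein transcript Chad, the fibronectin transcript Fn1, the secreted Cytl1 and Cst3 transcripts, and 3110079O15Rik, listed here with the cartilage proteoglycans. The others were Cnmd, Actb, Fos, Gm2000, and Gm1821, an annotated pseudogene whose counts are uncertain. UMI numbers were not scaled to gene length, and beyond the choice of these 15 genes, levels of different genes were not ranked against each other.

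Col2a1 ranged from 60812 CPM on plate 8 to 84291 CPM on plate 6 (mean 72859 ± 7136 SD, n = 8 plates). Levels here are UMIs of the gene divided by all listed UMIs of the plate's Cnmd-rich cells, in CPM. Acan was at 4745, 5465 and 5470 CPM on plates 1, 2 and 4 and at 7135, 7897, 7075, 6590 and 6904 CPM on plates 5, 6, 7, 8 and 9 (6410 ± 1069). Epyc was at 1401, 1644 and 1706 CPM on plates 1, 2 and 4 and at 1062, 903, 1008, 1179 and 1135 CPM on plates 5 to 9 (1255 ± 297). Acan was thus lower, and Epyc higher, on each of plates 1, 2 and 4 than on any of plates 5 to 9, whereas the ranges of Col2a1 overlapped. The labels put these plates in no groups, so the difference carries no test.

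**Figure D1:**
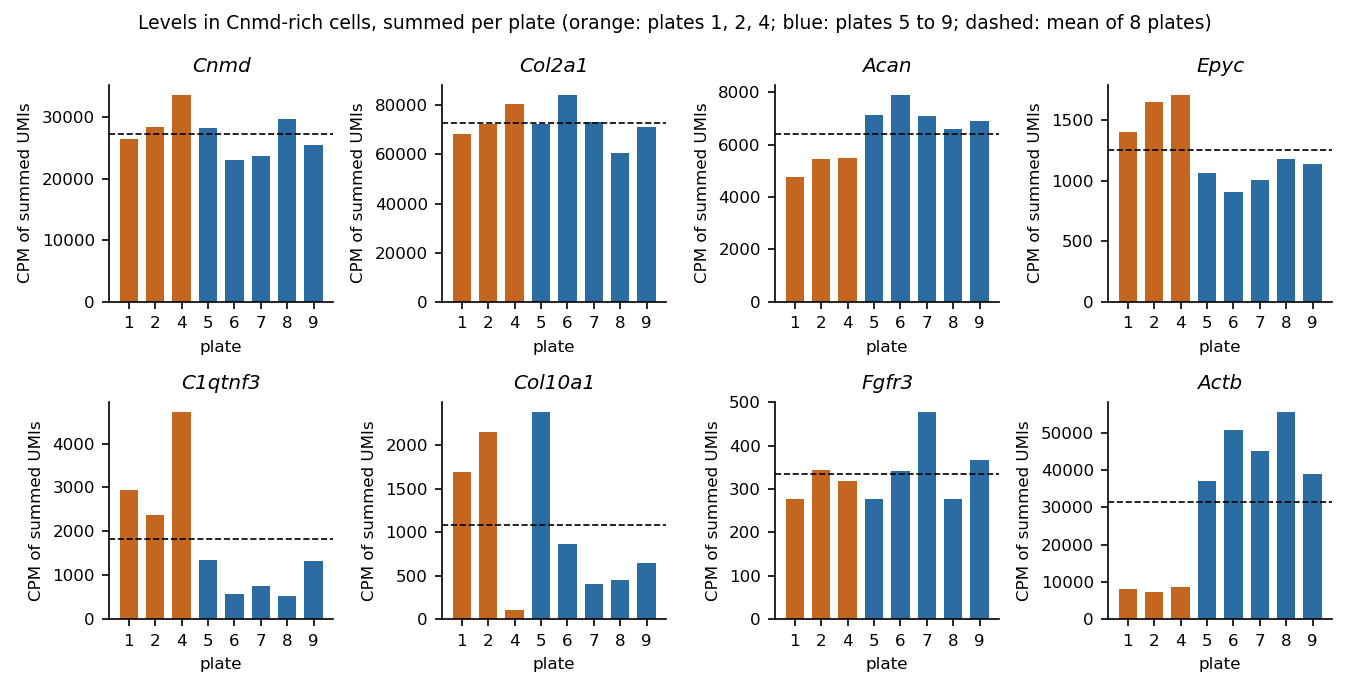
Levels of 8 transcripts in the Cnmd-rich cells of each plate, in CPM of summed UMIs (vertical axes, from 0), by plate number (horizontal axes), with plates 1, 2 and 4 in orange, plates 5 to 9 in blue and the mean of 8 plates dashed. Actb separates the 2 sets of plates, C1qtnf3 and Epyc are higher in orange plates, Col10a1 is lowest on plate 4, and Fgfr3 is highest on plate 7.

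C1qtnf3 was uneven between plates and between cells. It stood at 2947, 2380 and 4717 CPM on plates 1, 2 and 4 and at 1338, 562, 743, 527 and 1324 CPM on plates 5 to 9 (1817 ± 1458 SD, n = 8). All 3 values of plates 1, 2 and 4 lay above the 5 others. A C1qtnf3 UMI was found in 149 of 245 cells (60.8%) against 15.4% of Clu/Cilp/1500015O10Rik-rich cells, and at 1000 UMIs per cell in 47.1% (40.6% to 53.6%) against 11.4% (7.83% to 15.9%). The 25 cells with the most C1qtnf3 UMIs held 52.9% of them, and 96 cells had none. C1qtnf3 reached 1.63% of UMIs in a cell of plate 1. Cells with at least 0.5% numbered 6, 5 and 13 on plates 1, 2 and 4, and 1, 0, 0, 0 and 2 on plates 5 to 9. The plate median was 0.479% of UMIs on plate 4 and at most 0.0894% on every other plate.

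Col10a1 was at 1692, 2145, 100.4, 2378, 859, 407, 444 and 641 CPM on plates 1, 2, 4, 5, 6, 7, 8 and 9 (1083 ± 866 SD, n = 8). Plates 1, 2 and 5 were high and plate 4 was low, which is not the split seen for Actb. This order rested on few cells. The 5 cells with the most Col10a1 UMIs held 62.1% of all 689, with 178 UMIs in a cell of plate 5, 111 on plate 1, 94 on plate 2, and 28 and 17 in 2 cells of plate 6. In these cells Col10a1 made up 5.06%, 3.86%, 2.40%, 0.606% and 0.497% of UMIs. Without them the plates ranged from 100.4 to 717 CPM (431 ± 201), and plate 2 was highest. A Col10a1 UMI was found in 136 members, but at least 10 UMIs in 8 members and in 64 Clu/Cilp/1500015O10Rik-rich cells. The 5 cells had 0, 0, 1, 4 and 0 C1qtnf3 UMIs, 10, 2, 15, 11 and 19 Alpl UMIs, and 12, 2, 51, 3 and 10 UMIs of Cdkn1c, which encodes the cell cycle inhibitor p57. They kept 174, 119, 307, 644 and 382 Col2a1 UMIs.

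Fgfr3 was the most even of the 3 genes singled out for their variation. Its level was 278, 345, 318, 276, 341, 478, 277 and 368 CPM on plates 1, 2, 4, 5, 6, 7, 8 and 9 (335 ± 67.5 SD, n = 8). Plate 7 was highest, and plates 1, 5 and 8 were within 2 CPM of each other. A UMI of Fgfr3 was found in 131 cells (53.5%), with at most 4 in a cell, so its spread from cell to cell could not be resolved at this depth. Thinned to 1000 UMIs, 25.8% of Cnmd-rich cells (20.4% to 31.9%) and 22.1% of Clu/Cilp/1500015O10Rik-rich cells (17.2% to 27.6%) had one.

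**Figure D2:**
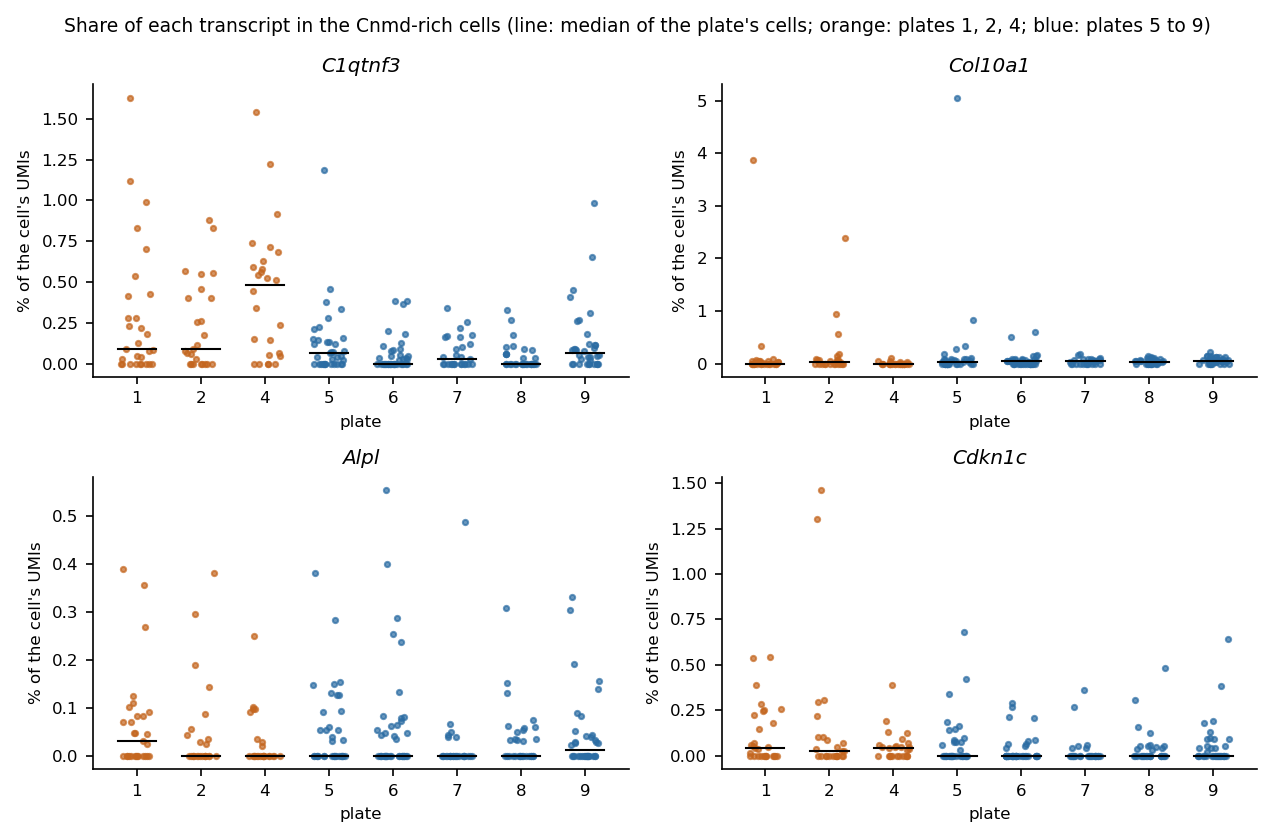
Share of each cell's UMIs (vertical axes, %) held by C1qtnf3, Col10a1, Alpl and Cdkn1c in each of the 245 Cnmd-rich cells, by plate, with the median of the plate's cells as a line. C1qtnf3 is spread over many cells of plates 1, 2 and 4, while 1 cell each of plates 1, 2 and 5 stands at 2.40% to 5.06% Col10a1.

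At least 1 UMI of a listed cell division gene was found in 196 of 245 members, and such UMIs were unevenly spread. Of the 48 listed genes used in S, G2 or M phase, 17 belong to S phase and 31 to G2 or M phase. Their 951 UMIs were absent from 49 members, while 18 members with at least 10 UMIs each held 443 of them (46.6%). These 18 cells numbered 5, 2, 4, 2, 2, 0, 2 and 1 on plates 1, 2, 4, 5, 6, 7, 8 and 9, and 1 of them, on plate 4, had 79 such UMIs. Among Clu/Cilp/1500015O10Rik-rich cells, 4 reached 10 UMIs. The 18 cells held 57 of 84 UMIs of Cenpa, a histone variant of centromeres, 44 of 58 of Cdc20, a mitotic activator, 37 of 47 of Ccnb2 and 33 of 36 of Ccnb1, the B cyclins of mitosis. The 18 cells were chosen by the sum of the 48 genes, so a high share of the leading ones is partly built in. Other members of the lists lay mostly outside the 18 cells, which held 15 of 113 UMIs of Cbx5, 8 of 61 of Anp32e and 4 of 47 of Blm. With each cell thinned to 1000 UMIs, at least 3 phase gene UMIs were found in 15.8% of Cnmd-rich cells (11.5% to 21.1%) and in 8.75% of Clu/Cilp/1500015O10Rik-rich cells (5.62% to 12.8%), and unthinned in 40.4% and 11.2%. No phase was called.

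The 18 cells kept Cnmd and Col2a1 near the level of the other 227 members, at 27236 against 27138 CPM and 71381 against 73112 CPM. Pooled C1qtnf3 was at 3866 against 1486 CPM, and it was higher on 4 of the 7 plates that had such cells. Plates 1, 2 and 4 held 5, 2 and 4 of the 18 cells and also had the highest C1qtnf3 and Epyc levels over all their Cnmd-rich cells. The part of this mix of plates in the pooled values was not tested. Epyc was at 1689 against 1177 CPM (higher on 6 of 7 plates), and Alpl at 313 against 627 CPM (higher on 1 of 7 plates). Col10a1 was at 226 against 1228 CPM and higher on 2 of 7 plates. The 5 cells with the most Col10a1 UMIs had 0 to 2 phase gene UMIs each, and without them the others were at 466 CPM. Cytl1 was at 15342 against 23081 CPM and was lower on 7 of 7 plates. With as few as 1 such cell on a plate, these are pooled values without a test. The 18 cells were chosen by a number of UMIs and were deeper, with a median of 2640 UMIs against 2258. In the split by depth below, deep cells also had less Cytl1 and more Epyc, but more Alpl. The part of depth in the values of the 18 cells was not tested.

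Next, the Cnmd-rich cells were set beside the Clu/Cilp/1500015O10Rik-rich cells of the same plates, to show in which genes they differ besides the 4 that define both groups. UMIs were summed per plate and group with these 4 genes removed, and fitted with edgeR. Of 934 genes tested, 492 (52.7%) passed an adjusted p of 0.05, of which 242 (25.9%) were higher and 250 (26.8%) lower in Cnmd-rich cells, and in 124 (13.3%) the ranges of the 8 plates did not overlap. Without TMM, a scaling that balances most genes between libraries, the split was 432 higher and 148 lower, as all values moved by 0.37 on the log2 scale. Both groups were chosen by transcripts of the same cells, so the values below describe them and nothing is read from the number of genes past the threshold. They are TMM-normalised CPM or log2 fold changes ± SE over 8 plates, and each is relative to the other transcripts of the sum.

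The collagen network was higher throughout. All 7 listed collagens of cartilage fibrils were higher (median log2 fold change 1.82, against -0.01 over all 934 genes), and this held in both sets of plates and without TMM. Col9a1 ranged from 5258 to 7436 CPM against 583 to 3099 CPM (log2 fold change 2.53 ± 0.19), with no overlap between the groups. The value was 2.07 ± 0.12 for Col9a3, 1.99 ± 0.14 for Col2a1, 1.82 ± 0.12 for Col9a2, 1.73 ± 0.13 for Col11a2, 1.53 ± 0.14 for Col27a1 and 1.30 ± 0.11 for Col11a1. Col12a1, a collagen that associates with fibrils, was among the 10 genes with the largest positive values, at 2.50 ± 0.27.

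Proteoglycans differed by member. Of 9 listed and tested, 5 were higher, 2 lower and 2 not past the threshold (median 0.32). Epyc was at 1193 to 1930 CPM in Cnmd-rich cells and at 18.8 to 302 CPM in the others (4.14 ± 0.34), again without overlap. Chadl was higher by 1.54 ± 0.21, Acan by 0.96 ± 0.11, Bgn, the biglycan transcript, by 0.77 ± 0.16, and 3110079O15Rik by 0.32 ± 0.10. Dcn, the decorin transcript, was at 1857 to 3538 CPM against 23985 to 39560 CPM (-3.84 ± 0.15), and Chad was lower by 1.94 on the log2 scale (-1.94 ± 0.15). Of 4 tested genes of chondroitin sulfate synthesis, the sulfotransferase gene Chst11 was higher (2.03 ± 0.17), Dse was lower and the other 2 did not pass.

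Of 9 tested genes of secreted glycoproteins, 6 were lower and 0 higher (median -1.48), and without TMM 5 were lower and 3 higher. The 3 that did not pass were Fn1 (0.26), Fbln7 (0.45) and Edil3 (0.60), each higher on 6 or 7 of 8 plates. Cytl1 had a plate median of 26005 CPM in Cnmd-rich cells and of 241510 CPM in Clu/Cilp/1500015O10Rik-rich cells (-3.12 ± 0.16). Cilp2 was lower at -3.89 ± 0.19, Abi3bp at -4.26 ± 0.21, the Wnt inhibitor gene Frzb at -2.68 ± 0.32 and Comp, a pentameric matrix protein gene, at -0.63 ± 0.12. All 6 tested articular chondrocyte markers were lower (median -4.33). Several of them share the side on which the rule put Clu and Cilp, so this is no independent evidence. Besides Abi3bp, Cilp2 and Dcn, the 10 largest negative values were those of Gas1 (-5.41 ± 0.19), a hedgehog co-receptor gene that also sits in the resting zone list, and of Angptl7 (-5.14 ± 0.27), Creb5 (-4.41 ± 0.30), Fhl1 (-4.28 ± 0.29), Cd14 (-4.15 ± 0.22), Cdo1 (-3.87 ± 0.30) and Bmp2 (-3.67 ± 0.33), the last a bone morphogenetic protein ligand gene.

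C1qtnf3 was at 662 to 5335 CPM in Cnmd-rich cells against 26.1 to 545 CPM (3.35 ± 0.24), higher on 8 of 8 plates. Among the other leading genes were the actin-bundling gene Fscn1 (3.04 ± 0.25), Fam180a (2.96 ± 0.24), the growth factor gene Clec11a (2.61 ± 0.17) and the carbonic anhydrase gene Car12 (2.51 ± 0.26). The largest value of all was that of Gm37788 (5.13 ± 0.24), which lies within Rasal2 on the same strand, so the reads of the pair cannot be told apart with certainty. The long noncoding transcript 2700038G22Rik was higher by 3.19 ± 0.27.

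Hypertrophic genes went both ways, and only 12 of the 22 genes in their list are among the listed genes. Col10a1 was at 1839, 2292, 114, 2977, 1135, 532, 557 and 820 CPM on plates 1, 2, 4, 5, 6, 7, 8 and 9, and in the Clu/Cilp/1500015O10Rik-rich cells at 3620, 1856, 2182, 15136, 16458, 13727, 6949 and 10404 CPM (-2.83 ± 0.45). It was lower on 7 of 8 plates, with plate 2 the exception. The value was -3.52 within plates 5 to 9 and -1.12 within plates 1, 2 and 4, where it did not pass (edgeR quasi-likelihood test, adjusted p = 0.0721). Ctgf (-1.33 ± 0.14), Enpp1 (-1.55 ± 0.16) and Fgfr1 (-0.71 ± 0.15) were also lower, whereas Alpl was higher (1.02 ± 0.21). Of 4 tested genes of FGF signalling, Fgfr1 and Fgfr2 (-3.37 ± 0.27) were lower, and Fgfr3 had a log2 fold change of -0.00 (SE 0.17), higher on 3 plates and lower on 5. The Fgfr3 value was 0.56 within plates 1, 2 and 4, -0.20 within plates 5 to 9 and 0.36 without TMM, and it passed in none of these. Of the 3 tested resting zone genes, Gas1 and Cd200 (-2.68 ± 0.17) were lower and Apoe was not past the threshold.

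Regulators of the G1 phase were divided. Cdk6, a kinase of G1, was higher (2.08 ± 0.19), as were Cdkn1c (1.51 ± 0.23) and Gadd45g (1.04 ± 0.15), whereas Ccnd2, a D-type cyclin gene, was lower (-3.64 ± 0.25) together with Cdkn1a and Cdkn1b. That made 3 higher and 3 lower of 8 tested, and 5 and 3 without TMM. At 1000 UMIs per cell, Cdk6 was found in 45.0% of Cnmd-rich cells (38.6% to 51.5%) against 10.3% (6.88% to 14.6%), and Ccnd1 in 11.7% (7.89% to 16.4%) against 1.90% (0.620% to 4.38%). Genes of protein folding in the endoplasmic reticulum gave 4 higher and 2 lower of 16, glycolysis and hypoxia genes 2 and 4 of 7, immediate early genes 2 and 3 of 10, actin cytoskeleton genes 2 and 7 of 12, BMP signalling genes 0 and 2 of 3, and ATP synthase and cytochrome oxidase genes 2 and 2 of 25, or 17 and 1 without TMM.

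**Figure D3:**
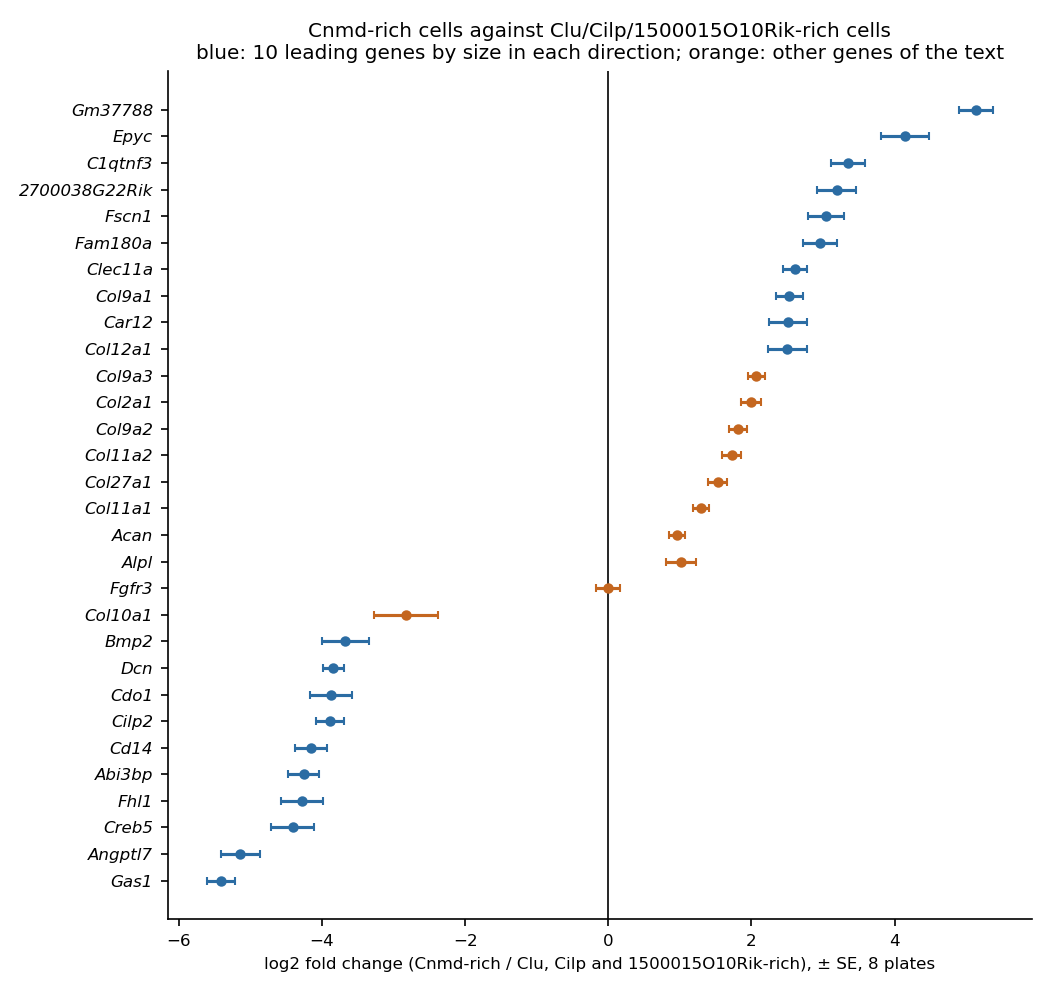
Log2 fold change of Cnmd-rich over Clu/Cilp/1500015O10Rik-rich cells (horizontal axis) for 30 genes, with bars for the SE over 8 plates; blue points are the 10 leading genes in each direction and orange points are other genes of the text. Gm37788, Epyc and C1qtnf3 lie furthest to the right, the fibril collagens between 1.30 and 2.53, Fgfr3 at 0, and Gas1 and Angptl7 furthest to the left.

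Variation within the Cnmd-rich cells was then followed along C1qtnf3, which the rule did not use. The cells of each plate were split at the plate's median C1qtnf3 share, giving 116 C1qtnf3-high and 129 C1qtnf3-low cells in all, and C1qtnf3 and the 4 rule genes were removed before the fit. On plates 6 and 8 the median was 0, so cells with a C1qtnf3 UMI were set against cells without one. C1qtnf3 was at 1069 to 7244 CPM of all listed UMIs in C1qtnf3-high and at 0 to 1363 CPM in C1qtnf3-low sums, so high and low are relative to the plate. Alpl, Cdkn1c, the osteocalcin genes Bglap, Bglap2 and Bglap3, and a set of secreted matrix genes were lower in C1qtnf3-high cells, whereas Col2a1, Acan and Epyc were not past the threshold. Of 556 genes tested, 27 (4.86%) passed, with 26 (4.68%) lower and 1 (0.18%) higher (edgeR quasi-likelihood test with the plate as a block, Benjamini-Hochberg adjusted). The ranges of the 8 plates overlapped for every gene. Of the 27 genes, 1, Alpl, also passed within plates 5 to 9, 13 within plates 1, 2 and 4, and 17 with DESeq2. Median UMIs per cell were 2200 to 2569 per plate in C1qtnf3-high and 1725 to 2381 in C1qtnf3-low cells.

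Alpl was at 295, 367, 248, 299, 1024, 115, 319 and 455 CPM in C1qtnf3-high cells of plates 1, 2, 4, 5, 6, 7, 8 and 9, and at 1961, 1600, 761, 2149, 1621, 987, 829 and 1422 CPM in C1qtnf3-low cells. It was lower on every plate, with the smallest gap on plate 6 (log2 fold change -1.87 ± 0.24, adjusted p = 3.21e-04). Alpl passed without each plate in turn, within plates 5 to 9 (-1.68, adjusted p = 0.0259), within plates 1, 2 and 4 (-2.24, adjusted p = 1.54e-04) and without the plate block (-1.81, adjusted p = 0.0081), by the same edgeR test. It was the 1 gene that passed without the block.

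Cdkn1c was at 886, 449, 702, 665, 627, 577, 425 and 1040 CPM in C1qtnf3-high cells and at 3005, 5035, 936, 1970, 867, 697, 1342 and 1388 CPM in C1qtnf3-low cells. It was lower on all 8 plates, and plates 1 and 2 had the widest gaps (-1.33 ± 0.28, adjusted p = 0.0145). It did not pass without plate 1 (adjusted p = 0.0539), without plate 5 (adjusted p = 0.0672) or within plates 5 to 9 (-0.89, adjusted p = 0.16).

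Of 13 listed secreted glycoprotein genes 5 were tested, and all 5 were lower (median -0.78, against 0.01 over all 556 genes): Cytl1 at -0.57 ± 0.10, Comp at -0.67 ± 0.12, Fbln7 at -0.78 ± 0.19, Crispld1 at -0.83 ± 0.17 and Fn1 at -0.97 ± 0.23. None of the 5 passed within plates 5 to 9 (edgeR, adjusted p = 0.16 to 0.473), and Fbln7 and Crispld1 did not pass with DESeq2 (adjusted p = 0.616 and 0.101). Chad was at 5491 to 20142 CPM in C1qtnf3-high and at 13034 to 44729 CPM in C1qtnf3-low cells, and lower on all 8 plates (-0.93 ± 0.12, adjusted p = 3.21e-04). Cst3, encoding the protease inhibitor cystatin C, was also lower on all 8 plates (-0.88 ± 0.13, adjusted p = 5.73e-04). Chad and Cst3 did not pass within plates 5 to 9 (adjusted p = 0.0515 and 0.0546). The 3 type VI collagen chains were lower too, with Col6a2 at -1.03 ± 0.19, Col6a1 at -0.80 ± 0.18 and Col6a3 at -0.63 ± 0.17. None of these chains passed within plates 5 to 9 (adjusted p = 0.16, 0.249 and 0.227), and Col6a3 did not pass with DESeq2 (adjusted p = 0.29) and passed in 1 of the 8 fits that left out 1 plate. The annexin gene Anxa8 was at -1.24 ± 0.19. The 1 gene on the higher side, Gm10036, was higher on 7 of 8 plates (0.65 ± 0.17). It passed in 2 of the 8 fits that left out 1 plate, and its counts are uncertain because it is annotated as a processed pseudogene.

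None of the 7 fibril collagens passed. Col2a1 was at -0.07 ± 0.08 (adjusted p = 0.838), Acan at 0.09 ± 0.10 (adjusted p = 0.808), Epyc at 0.28 ± 0.15 (adjusted p = 0.472) and Fgfr3 at 0.47 ± 0.27 (adjusted p = 0.49), which leaves differences of this size undecided. Hypertrophic genes gave 3 lower of 5 tested, namely Alpl, Enpp1 (-0.82 ± 0.20) and Ctgf (-0.79 ± 0.20). Enpp1 did not pass with DESeq2 (adjusted p = 0.62) or within either set of plates, and Ctgf passed in 3 of the 8 fits that left out 1 plate. Col10a1 did not pass (-1.53 ± 0.58, adjusted p = 0.245) and was higher on 4 plates and lower on 4. It was at 455 ± 308 CPM against 1773 ± 1895 CPM of all listed UMIs (mean ± SD, n = 8 plates), and 537 of its 689 UMIs lay in C1qtnf3-low cells. The 5 cells that held 428 of these UMIs had 0 to 4 C1qtnf3 UMIs each. Osteoblast markers gave 4 lower of 5 tested, namely Alpl, Bglap (-1.55 ± 0.39), Bglap2 (-1.74 ± 0.38) and Bglap3 (-1.69 ± 0.43). None of the Bglap genes passed within plates 5 to 9 (adjusted p = 0.175, 0.0678 and 0.248), and Bglap and Bglap3 each passed in 2 of the 8 fits that left out 1 plate. The 3 Bglap genes are near copies whose counts may be mixed. Alpl stands in both lists, and the part of the osteoblast transcripts in the Alpl result was not tested.

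**Figure D4:**
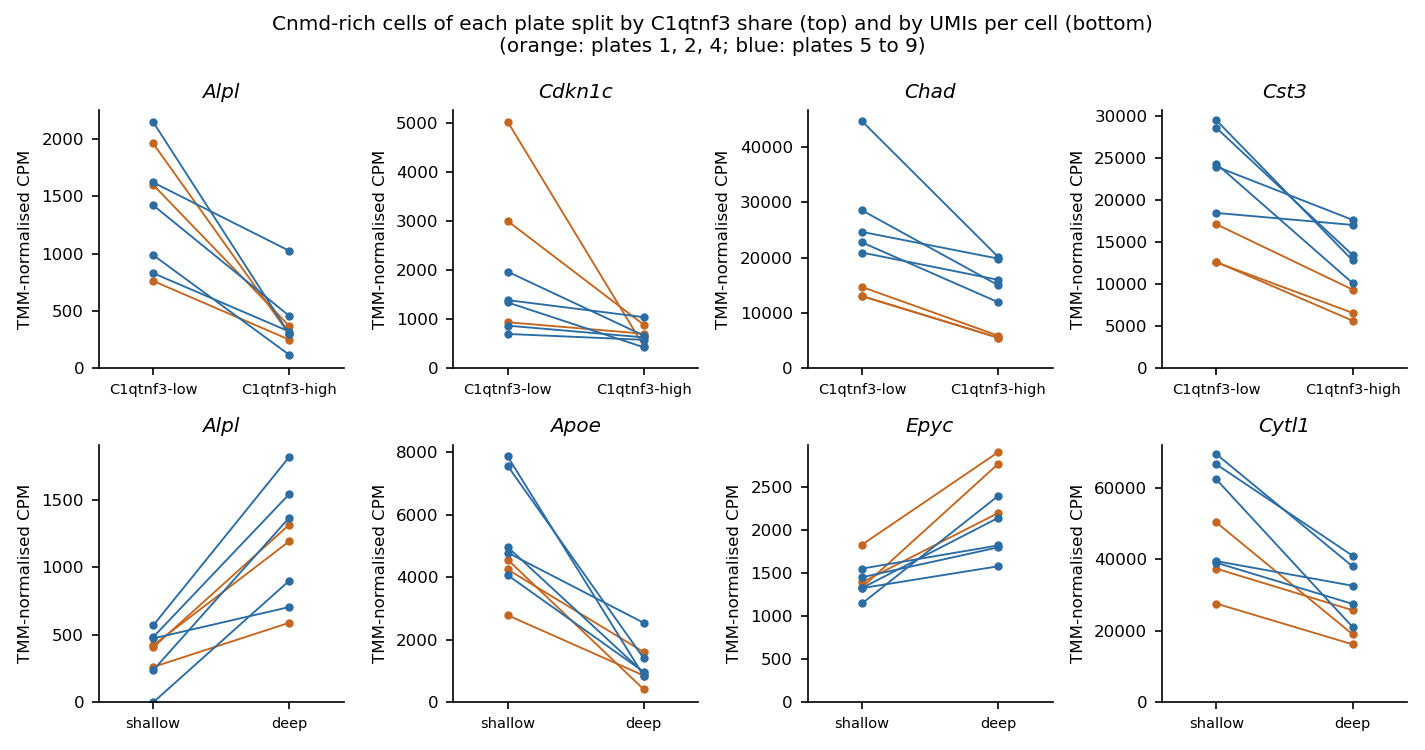
TMM-normalised CPM (vertical axes, from 0) of 4 genes in C1qtnf3-low and C1qtnf3-high cells (top) and of 4 genes in shallow and deep cells (bottom), with a line for each of the 8 plates, orange for plates 1, 2 and 4 and blue for plates 5 to 9. Alpl, Cdkn1c, Chad and Cst3 go down on every plate from C1qtnf3-low to C1qtnf3-high cells, and the plate values of deep and shallow cells do not overlap in Alpl or Apoe.

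A split at the plate's median Col10a1 share separated 112 Col10a1-high from 133 Col10a1-low cells and gave no call. Of 565 genes tested, 0 passed (0%), 16 had an unadjusted p under 0.05 by edgeR, and DESeq2 also called 0, with 7 under that value. The smaller group held 5 cells on the plate with the fewest, and 5 cells carried most Col10a1 UMIs, so a plate's Col10a1-high sum mixed them with cells of 1 or 2 UMIs. C1qtnf3 was at 2017 ± 1943 CPM in Col10a1-high and at 1766 ± 1427 CPM in Col10a1-low cells (mean ± SD, n = 8 plates).

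Cells also differed along the number of UMIs they yielded. A split at the plate's median gave 120 deep cells, with plate medians of 2522 to 3461 UMIs outside the rule genes, and 125 shallow cells, with 1562 to 2004. Alpl, Epyc and the gap junction gene Gja1 were higher in deep cells, and the lipid carrier gene Apoe, Cytl1 and Cst3 were lower. Of 507 genes tested, 42 (8.28%) passed, 17 (3.35%) higher and 25 (4.93%) lower in deep cells (edgeR quasi-likelihood test, as above), and in 3 genes, Apoe, Alpl and Gm10320, the plates did not overlap. Of the 42 genes, 12 also passed within plates 5 to 9, 10 within plates 1, 2 and 4, and 17 with DESeq2.

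Apoe was at 859, 419, 1611, 976, 850.0, 948, 1411 and 2546 CPM in deep cells of plates 1, 2, 4, 5, 6, 7, 8 and 9, and at 2790.4, 4571, 4255, 4075, 7874, 4974, 7573 and 4793 CPM in shallow cells (-2.11 ± 0.21, adjusted p = 1.41e-06). Every shallow value exceeded every deep value. Alpl was at 1315, 1192, 589, 1542, 1816, 901, 706 and 1367 CPM in deep and at 407, 422, 262, 483, 569, 0, 473 and 237 CPM in shallow cells (1.71 ± 0.24, adjusted p = 1.78e-04). Here too the plate values of the groups did not overlap, though single cells did. Alpl passed within plates 5 to 9 (1.84, adjusted p = 0.0055) and within plates 1, 2 and 4 (1.52, adjusted p = 0.021).

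Epyc was at 1582 to 2907 CPM in deep and 1150 to 1833 CPM in shallow cells, higher on 8 of 8 plates (0.61 ± 0.14, adjusted p = 0.0121). It did not pass within plates 5 to 9 (adjusted p = 0.168) or within plates 1, 2 and 4 (adjusted p = 0.119). Cytl1, which had a median share of 14.0% in Clu/Cilp/1500015O10Rik-rich cells, was lower in deep cells on 8 of 8 plates (-0.83 ± 0.14, adjusted p = 7.86e-04). All 245 members had Cytl1 UMIs, with a median share of 1.84% (10th to 90th percentile 1.20% to 3.85%). Dcn (-0.80 ± 0.15) and Cst3 (-1.10 ± 0.16) were lower in deep cells as well. Whether RNA from other wells has a part in these values was not tested. Cdkn1c was higher in deep cells on 7 of 8 plates (1.14 ± 0.23, adjusted p = 0.0031), at 1.79 within plates 5 to 9 and at 0.49 within plates 1, 2 and 4, where it did not pass (adjusted p = 0.468).

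Col11a1 (0.44 ± 0.12), Col27a1 (0.45 ± 0.13), Gja1 (1.09 ± 0.27) and Col10a1 (0.89 ± 0.26) passed as well by the edgeR test of deep against shallow cells. Col11a1 did not pass within plates 5 to 9 (adjusted p = 0.303), nor Gja1 within either set of plates (adjusted p = 0.191 and 0.063). Col27a1 did not pass with DESeq2 (adjusted p = 0.103) and passed in 2 of the 8 fits that left out 1 plate. The Col10a1 call was lost with DESeq2 (adjusted p = 0.194) and without plates 1, 2, 5 or 6, each of which held 1 or 2 of the 5 cells with the most Col10a1, and its log2 fold change was 0.05 with Cnmd of at least 0.5% and 0.21 with Cnmd of at least 2%. C1qtnf3 was at -0.04 ± 0.17 (adjusted p = 0.936).

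Alpl and Cdkn1c were often found in the same cells. At 1000 UMIs per cell, Cdkn1c was found in 35 of the 70 cells with an Alpl UMI and in 20.6% of those without, and the rank correlation over the 240 cells was 0.356. For C1qtnf3 and Alpl it was -0.163, with Alpl in 22.1% of cells with a C1qtnf3 UMI and in 35.4% of those without. Cells of 1 plate share a library, and these correlations are descriptions.

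Markers of other cells were measured in the Cnmd-rich cells by plate. The osteoblast list summed to 1004 to 10845 CPM, with a UMI in 214 cells. It was highest on plate 9, at 1032 UMIs, and 5 cells held 34.1% of the 1027 Bglap UMIs. Blood cell markers ranged from 33.0 to 4798 CPM, and on plate 1, the highest, 349 of 363 UMIs lay in 1 cell with Elane and Cd74, while Cd3e and Alas2 were at 0 throughout. Fibrous tissue markers reached 1586 CPM on plate 1, where 119 of 120 UMIs were of Col1a1, a gene that is also in the osteoblast list, 113 of them in 1 cell. Col3a1 and Cd34 were at 0 on that plate, and Dpp4, Clic5 and Col14a1 on all plates. Marrow stromal markers stayed at 33.5 to 166 CPM, endothelial markers at 0 to 55.5 CPM with Emcn, Egfl7, Esam, Cldn5 and Flt1 at 0, and muscle markers at 27.7 to 305 CPM with 7 of 11 at 0. Articular chondrocyte markers summed to 3931 to 7429 CPM against 49881 to 58789 CPM in Clu/Cilp/1500015O10Rik-rich cells. No cell was removed as a doublet.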

How the data were processed

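Single cell UMI counts of 8 Grem1-lineage plates were analysed, with 2 Lepr-lineage plates as background. The deposited values are whole-number UMI counts, 1 column for each well, which the authors had not normalised. The submitters' processing notes name UMI-tools, STAR, featureCounts, SAMtools and Seurat without versions, and mm10. In the table used here 29183 complete gene rows were read, and 1 incomplete row, at which the table ends, was dropped. Genes beyond that row were not analysed. Plates were assigned to a lineage from the labels, and replicates are plates, so p-values measure the spread between plates, which may be technical.

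Members, lists and tests were chosen with earlier results of these data known. UMIs were summed per plate and group, with at least 10 cells per sum in the comparison of groups and at least 5 in splits within the Cnmd-rich cells. Sums were tested in R 4.3.3 with edgeR 4.0.16 (TMM, filterByExpr, quasi-likelihood fit and test, plate as a block, Benjamini-Hochberg adjustment, threshold 0.05), and DESeq2 1.42.0 was an alternative. Rule genes and the gene of each split were taken out beforehand. Standard errors are approximate. Sums of the same plate deviated together (mean correlation 0.336 in the comparison of groups, 0.192 to 0.444, above 0.1 on 8 of 8 plates, and 0.388, 0.392 and 0.401 in the splits by C1qtnf3, Col10a1 and depth), so plates pair the sums, which come from the same library. Intervals of shares are exact Clopper-Pearson 95% intervals. Thinned cells were drawn without replacement to 1000 UMIs, or to 800 for the comparison of groups, and shallower cells were left out.

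On simulated data with known changes, edgeR recovered 96% of 2-fold and 100% of 4-fold changes over the 934 genes of the comparison of groups, with 6.67% false calls among all calls, and 91.4% of 2-fold changes over the 556 genes of the C1qtnf3 split. Every gene was drawn with the same dispersion, the setting for spread beyond counting error. Genes with many of their UMIs in few cells, such as Col10a1 and Cdkn1c, were not modelled, so these rates may not hold for them. Chosen to be named were the 4 rule genes, Epyc, Col2a1, Acan, C1qtnf3, Col10a1 and Fgfr3, list members as examples, the 15 genes with the most UMIs, and the 10 genes (6 in splits) with the largest change in each direction that passed, reached a mean of 100 CPM in the higher group and changed alike on every plate. Other genes past the threshold in a split, Gm10036, the type VI collagens and the markers of other cells in single cells were chosen after their values were seen. Of the genes chosen by size of change, Chsy1 of the C1qtnf3 split is not described above. Neither are Ccdc80, Cd63-ps, 2900055J20Rik, Btg2, Atp6v0e and Gm13340 of the depth split. Chsy1 passed in 2 of the 8 fits that left out 1 plate, Gm13340 in 3, Cd63-ps and Atp6v0e in 6, and Ccdc80, 2900055J20Rik and Btg2 in 8. Gene positions were found for 89 of 92 symbols in GENCODE, and promoter sequence is from RefSeq. No doublet caller was run, because each well was sorted to hold 1 cell.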

Additional observations from a re-analysis of the deposited data

Results flagged for a closer look

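For 50 values, the plate furthest from the others was compared with the spread of the 8 plates (Dixon's test). By chance about 1 in 20 values would stand out, and 4 of 50 did. Fgfr3 was at 478 CPM in the Cnmd-rich cells of plate 7, where the next plate was at 368 CPM. The blood cell markers summed to 4798 CPM on plate 1 (next plate 1083 CPM), and 96.1% of those UMIs lay in 1 cell. Fibrous tissue markers summed to 1586 CPM on plate 1 (next plate 578 CPM), where 119 of 120 UMIs were of Col1a1, also listed as an osteoblast marker, and 113 of these lay in 1 cell. Muscle markers summed to 305 CPM on plate 9 (next plate 127 CPM), where 1 cell held 14 of 29 UMIs, all of them Acta1.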

How the results depend on the processing

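The number of genes past the threshold between Cnmd-rich and Clu/Cilp/1500015O10Rik-rich cells was 492, and it became 790 with no filter on low counts (12232 genes tested) and 190 with cells thinned to 800 UMIs (377 genes tested). It ranged from 449 to 495 without each plate in turn. Under the plate sets, 351 of the 492 genes passed within plates 5 to 9 and 286 within plates 1, 2 and 4. Between C1qtnf3-high and C1qtnf3-low cells, 27 became 1 without the plate block, 17 with DESeq2, 13 with Cnmd of at least 2%, 8 with cells thinned to 1000 UMIs, 6 when thinned cells with a C1qtnf3 UMI were set against those without, and 2 (Alpl and Ctcfl) within plates 5 to 9. Without each plate in turn it ranged from 7, without plate 5, to 31, without plate 8, and was 8 without plate 1, 13 without plate 2, 14 without plate 4 and 15 without plate 9. Within plates 1, 2 and 4 it was 18, of which 13 are among the 27. The Col10a1 split gave 0 calls without each plate, 8 with no filter on low counts and 3 within plates 5 to 9 (Capza2, Ctcfl and Gm42856). Between deep and shallow cells, 42 became 3 without the block (Alpl, Apoe and Gm10320), 17 with DESeq2, 20 with Cnmd of at least 2%, 12 within plates 5 to 9 and 17 within plates 1, 2 and 4, and 19 to 39 without each plate in turn (19 without plate 5, 22 without plate 1, 27 without plate 9). The replicate block thus decided most calls of both splits, and sums of 1 plate come from 1 library.

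The share of Cnmd-rich cells was 35.9% and became 50.3% with a minimum of 500 genes and 28.0% with Cnmd of at least 2%, and ranged from 34.4% to 37.1% without each plate. Within plates 1, 2 and 4 the mean level was 1584 CPM for Epyc, 5227 CPM for Acan and 3348 CPM for C1qtnf3. The named genes kept their direction wherever they had passed, but of the 492 genes called between the groups 6 turned direction without TMM and 6 within plates 1, 2 and 4. Of 203 values for 10 genes of the C1qtnf3 split 22 no longer passed, and of 337 values for 18 genes of the depth split 62. These totals include genes that had not passed at first and had no call to lose. They were Epyc, Col2a1, Acan and Fgfr3 in the C1qtnf3 split, and Col2a1, Acan, C1qtnf3 and Fgfr3 in the depth split. Most of the 27 and 42 genes called in the splits are not among the genes counted, so these values do not measure how stable the calls were. The causes were not tested. The alternatives without TMM and within sets of plates were chosen after seeing the data. Depth limits Fgfr3 to at most 4 UMIs a cell, so its variation from cell to cell was not resolved.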
